A study of Rattus norvegicus with 38 samples.

Results

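Of 13928 acetylated regions of 2 to 10 kb in the substantia nigra (SN) of the rat, 459 had no counterpart in the motor cortex. These 459 wide SN-only peaks are described here. They are the intervals of the SN peak list on chromosomes 1 to 20 that were at least 2000 bp and under 10000 bp wide and had no interval of the motor cortex list over them or within 1000 bp. They were chosen by their width and their gap to the motor cortex list, so both are given as descriptions with no test. They made up 3.30% of the wide SN peaks, against 27.1% for SN peaks of any width (18902 of 69744). The reverse search found 5330 of 21511 wide motor cortex peaks with no SN peak within 1 kb, which is 24.8%, against 41.3% for motor cortex peaks of any width (32808 of 79517). The SN list as deposited is longer than the SN peak number given in the study, while the motor cortex list is close to its number, so every SN share here holds for the deposited list. The study also had more reads in motor cortex than in SN, and region and read number cannot be told apart in these shares.

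Acetylation of lysine 27 on histone H3 (H3K27ac) is laid down by the acetyltransferases p300 and CBP, and marks active promoters and enhancers. Wide or closely spaced acetylated regions are known around genes that define a cell type. The SN holds the dopamine neurons of the ventral midbrain together with GABA neurons and many glia, while the motor cortex is built largely from glutamatergic projection neurons and interneurons. Homeodomain factors such as En1, En2, Otx2 and the Iroquois (Irx) family pattern the midbrain and hindbrain during development.

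Chromatin came from 9 male Lewis rats aged 8 to 10 months. Of these, 5 received rotenone, an inhibitor of mitochondrial complex I, at 2.8 mg/kg each day for 21 days, and 4 received vehicle over the same 21 days. SN (labelled ventral midbrain) and motor cortex (labelled cortex) were taken 24 h after the last injection. The series has 38 sample entries, of which 10 are SN from rotenone rats, 8 SN from vehicle rats, 8 motor cortex from rotenone rats and 8 motor cortex from vehicle rats. The other 4 are input DNA, from 1 input per treatment with 2 entries each, and all 4 are labelled cortex. Entries labelled lane 2 repeat the names of other entries, so entries are not separate samples. Each region has 5 rotenone and 4 vehicle rats. The control entries name their vehicle differently in the labels and in the protocol, and the word vehicle is used here. Each deposited list was called on all rats of a region together, with no score, so it holds no value per rat. Nothing below has an error over animals, rotenone and vehicle cannot be compared, and the intervals given are 95% Wilson intervals that cover counting error only and treat neighbouring peaks as independent. Sequencing depth per rat is unknown from these lists.

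Peak sequences are not printed, since no genome of the files' build (mRatBN7.2) was used here. The authors' annotation of changed regions classed 93 of the wide SN-only peaks and put 3 at a promoter, of which 2 are described here. One was assigned to the promoter of Shbg, which encodes sex hormone-binding globulin, at chr10:54334696-54337086 (2391 bp wide, 2214 bp from the nearest motor cortex peak). The other was assigned to the promoter of the microRNA gene Mir6329, at chr8:52437435-52440932 (3498 bp, 2045 bp from motor cortex). The Shbg promoter and the mature microRNA are shown because these peaks were assigned to their genes, and whether a peak covers a start site was not determined. Another 3 peaks lay between named peaks of the microRNA genes Mir29b1 (2881 bp, chr4:59749467-59752347), Mir153 (2588 bp, chr6:138353319-138355906) and Mir297 (2132 bp, chr10:98156864-98158995). The sequences are from RefSeq on GRCr8, read 5′ to 3′. In the Shbg promoter, on the minus strand, capitals mark the 50 bases from the transcription start, and the 250 bases before it are in lower case. In the microRNAs capitals mark the seed, bases 2 to 8.
Shbg promoter: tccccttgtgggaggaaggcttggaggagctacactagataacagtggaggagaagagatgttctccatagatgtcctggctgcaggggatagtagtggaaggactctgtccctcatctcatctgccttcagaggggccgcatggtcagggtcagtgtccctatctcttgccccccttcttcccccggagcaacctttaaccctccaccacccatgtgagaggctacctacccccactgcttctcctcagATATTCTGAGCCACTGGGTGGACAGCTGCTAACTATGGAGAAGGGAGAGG
rno-miR-6329: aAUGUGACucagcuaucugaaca
rno-miR-29b-3p: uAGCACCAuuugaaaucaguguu
rno-miR-29b-1-5p: uUUCAUAUggugguuuagauuu
rno-miR-153-3p: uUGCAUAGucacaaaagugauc
rno-miR-153-5p: gUCAUUUUugugauguugcagcu
rno-miR-297: aUGUAUGUgugcauguaugcaug
No 2 of the 6 mature microRNAs shared a seed. The Shbg window was 55.7% G and C. On either strand it held no TATA box (TATAAA), no CCAAT box (CCAAT) and no GC box (GGGCGG), letters found in 14.2%, 37.5% and 33.1% of the 33469 RefSeq promoter windows.

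The wide SN-only peaks sat at the narrow end of their class. Their median width was 2411 bp (quartiles 2150.5 and 2898.5 bp, range 2000 to 8926 bp), and together they covered 1.26 Mb. Only 89 (19.4%) reached 3 kb and 18 (3.92%) reached 5 kb. The 13335 wide SN peaks that overlapped a motor cortex peak had a median of 2912 bp, 46.9% reached 3 kb and 14.9% reached 5 kb. The 5330 wide motor cortex-only peaks had a median of 2758 bp and 41.1% reached 3 kb. Since the rule used width, these are descriptions of the selection.

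The share of SN peaks without a motor cortex partner fell step by step with width. It was 50.6% under 500 bp, 37.4% from 500 to 1000 bp and 16.1% from 1 to 2 kb. It was 4.89% from 2 to 3 kb (370 of 7563), 1.63% from 3 to 5 kb (71 of 4354) and 0.895% from 5 to 10 kb (18 of 2011, Wilson interval 0.567% to 1.41%). Above the upper limit 2 of 501 had no partner. The motor cortex list also fell with width but far less, from 59.7% under 500 bp to 29.0% at 2 to 3 kb, 23.0% at 3 to 5 kb and 15.2% at 5 to 10 kb. At every width the SN share was below the motor cortex share. Width and the missing partner are both parts of the rule, so these shares are descriptions with no test.

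**Figure D1:**
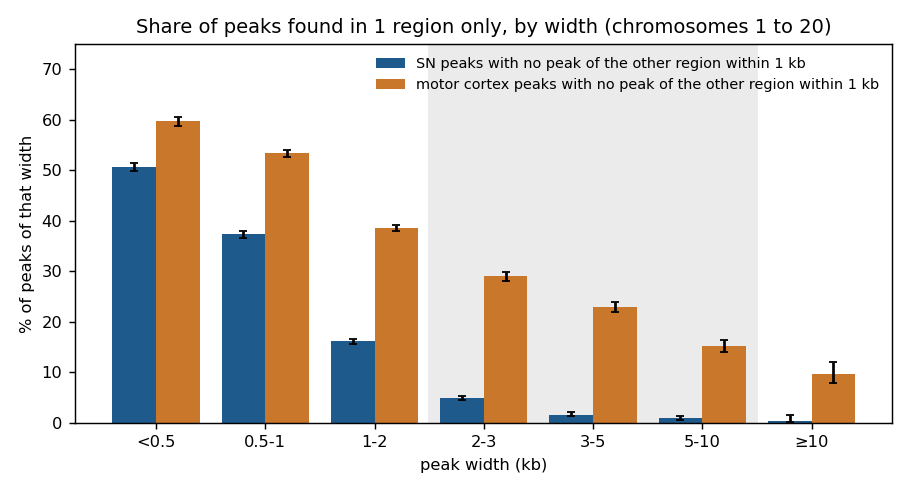
Percentage of SN (blue) and motor cortex (orange) peaks with no peak of the other region within 1 kb, by peak width in kb on chromosomes 1 to 20, with 95% Wilson intervals as bars and the 2 to 10 kb range shaded. The SN bars fall from 50.6% to 0.895% across the first 6 classes, while the motor cortex bars fall from 59.7% to 15.2%.

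The thresholds cut through a continuous distribution. SN peaks of 1900 to 1999 bp without a motor cortex partner numbered 95, just outside, and those of 2000 to 2099 bp numbered 80, just inside. Among peaks of 2 to 10 kb, 13 lay 901 to 1000 bp from a motor cortex peak and 9 lay 1001 to 1100 bp away. The smallest gap inside was 1007 bp and the largest outside was 998 bp.

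The median gap was 4830 bp (quartiles 2352 and 13915 bp), and 375 of the 459 lay over 2 kb, 224 over 5 kb, 142 over 10 kb and 58 (12.6%, Wilson interval 9.90% to 16.0%) over 50 kb from one. At the far end 47 peaks lay over 100 kb and 14 over 500 kb away, up to 1135697 bp. The wide motor cortex-only peaks were farther from the SN list, with a median gap of 17870 bp. Gaps in the SN list itself were short, since 410 of the 459 (89.3%, Wilson interval 86.2% to 91.8%) had another SN peak within 5 kb. The same held for 79.1% of the wide SN peaks shared with motor cortex (interval 78.4% to 79.8%) and for 74.2% of the wide motor cortex-only peaks in their own list (interval 73.0% to 75.4%). For 230 of the 459 (50.1%), another SN peak and a motor cortex peak each lay within 5 kb.

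The peak numbers kept in the lists bear on what "no counterpart" means. Both lists are numbered in genome order, but the numbers have gaps, so some numbered peaks are not in the deposited lists: 47.6% of SN numbers up to 148637 are listed and 58.2% of motor cortex numbers up to 138713. Between the motor cortex peaks on either side of a wide SN-only peak, at least 1 motor cortex number was missing in 375 of 458 cases (81.9%), with a median of 2 and a maximum of 14 missing. The missing number falls somewhere in that stretch and not necessarily at the SN peak. The other 83 peaks (18.1%) lay between motor cortex peaks with consecutive numbers. SN-only peaks under 2 kb had a similar share, with a number missing for 14639 of 18385 (79.6%), a median of 2 and a maximum of 15. In the reverse search an SN number was missing for 85.9% of the wide motor cortex-only peaks.

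Stretches of the same length class differed by what they held, though length still varied within a class. Of the stretches of 10 to 20 kb between neighbouring motor cortex peaks, a number was missing in 91.0% of those with a wide SN-only peak, 74.2% of those with only narrower SN-only peaks and 44.5% of those with no SN-only peak. At 20 to 50 kb the shares were 92.0%, 76.8% and 48.5%, and at 50 to 100 kb they were 93.0%, 77.7% and 54.0%. From 100 kb upwards the order changed, with a number missing in 31 of 45 stretches that held a wide SN-only peak (68.9%) against 79.2% and 58.4%. Of the 92 wide SN-only peaks in those long stretches, 49 (53.3%) had no missing motor cortex number, against 34 of 366 (9.29%) in shorter stretches. The 49 came from 14 stretches, so they are not separate cases. Of them, 36 came from 5 stretches with peaks assigned to Adam6, Rn18s, Smok2a, Zfp868 and Lzts1.

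**Figure D2:**
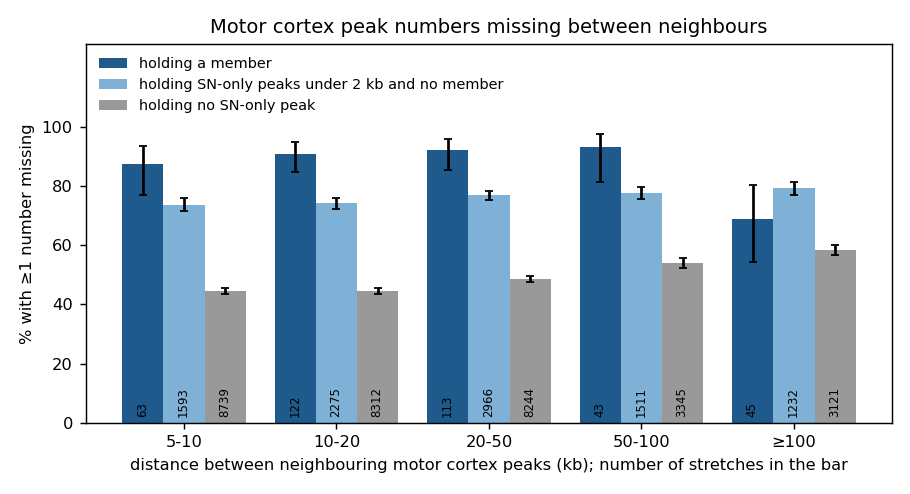
Percentage of stretches between neighbouring motor cortex peaks in which at least 1 motor cortex peak number is missing, by stretch length in kb, for stretches that hold a wide SN-only peak (labelled member), that hold only SN-only peaks under 2 kb, or that hold none, with 95% Wilson intervals and the number of stretches in each bar. The dark bars lie near 90% up to 100 kb and drop to 68.9% above it.

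Gene names came from the authors' annotation of differentially acetylated regions, read for names and places only, so the named peaks are not a random draw and nothing is inferred from their number. It named 93 of the 459 directly, and another 75 lay between peaks named for one gene and took that name. In all 168 peaks carried 104 gene names and 291 had none. In the 51 cases where both routes gave a name it was the same, but many of these were neighbours at Adam6, Smok2a and Pbx3. Of the 93, the annotation put 63 in distal intergenic sequence, 23 in introns, 3 in promoters, 3 in 3′ UTRs and 1 in an exon. Most genes had a single peak (83 of 104), and 11 had 2. The genes with most were Adam6 with 14, Rn18s with 13, Smok2a with 9, Pbx3 with 6, Adgre4 with 5 and Ncam1 with 4.

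Adam6, the gene with most named peaks, encodes a metalloprotease-like protein of the testis, and its gene lies inside the immunoglobulin heavy-chain locus in rodents. All 14 peaks assigned to it on chromosome 6 lay in a single stretch of 2539 kb with 81 SN peaks and no motor cortex peak, and no motor cortex number was missing there. Their widths ran from 2140 to 8926 bp, with a median of 2959 bp. The group with most members was 6 peaks at chr6:133383652-133423055, which filled 84.9% of 39.4 kb. The largest of them were 8926, 8820 and 7908 bp wide, and all were among the 10 widest of the 459. The 10 peaks farthest from any motor cortex peak were all assigned to Adam6, at 874.8 to 1136 kb.

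Rn18s, a gene for the small-subunit ribosomal RNA, came next. The 13 peaks with its name on chromosome 3 were 2131 to 5964 bp wide. They were all of the 13 wide SN peaks from 1 to 2 Mb of that chromosome. The motor cortex list had 1 peak of any width there. This name came from the authors alone and had no match in RefSeq gene order there, so where the gene lies was not determined. The run with most members held 5 at chr3:1026889-1050528 and filled 78.5% of 23.6 kb. Smok2a, a sperm motility kinase, had 9 peaks on chromosome 1, of 2149 to 5319 bp, 9 of the 11 wide SN peaks in their megabase. Of these, 5 lay in its introns at chr1:53333991-53353549 and filled 94.7% of 19.6 kb, in a stretch of 349 kb with no motor cortex peak. No motor cortex number was missing beside any peak of these last genes.

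Other groups differed in their surroundings. The vomeronasal receptor gene Vom2r47 had 3 peaks of 2059 to 2772 bp on chromosome 2, in a cluster of 4 at chr2:148873285-148895624 that lay 407959 to 421641 bp from motor cortex peaks, with 4 motor cortex numbers missing in the 851 kb around. Adgre4, an adhesion G-protein-coupled receptor, had 5 distal peaks on chromosome 9, and the widest were 6476, 6046 and 5728 bp. They lay 3380 to 15327 bp from motor cortex peaks, so they were wide without being remote. On chromosome 16, 2 peaks assigned to the zinc finger gene Zfp868 (4463 and 3926 bp) and 2 assigned to Lzts1, a leucine zipper gene (7428 and 2686 bp), shared a stretch of 716 kb with no motor cortex number missing.

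For description, 12 genes were grouped by hand after their values were seen (Adam6, Rn18s, Smok2a, Adgre4, Vom2r47, Vom2r9, Or7c19, Or8b101c, Or8b101d, Spetex2h, Ces1f and Zfp868). No list fixed this group. It leaves out Zfp541, another zinc finger gene, whose peak measured 2203 bp and lay 2892 bp from motor cortex with 2 motor cortex numbers missing. The group took 53 peaks, 11.5% of the 459, with a median width of 3044 bp and a median gap of 152 kb, and no motor cortex number was missing beside 47 of them (88.7%). The other 406 peaks had a median width of 2374 bp and a median gap of 4.02 kb, and 36 of 405 (8.89%) had no motor cortex number missing. Width and gap chose all of these peaks, and the group was formed with both known, so the difference between the sets is no result. RefSeq symbols number 1600 for olfactory receptors, 420 for Zfp, 165 for Vom2r and 35 for Smok. They number 30 for Adam, 22 for Spetex2, 6 for Ces1, 3 for Adgre and 1 for Rn18s. Where reads from near-identical copies can be split, a peak's position is uncertain, and this was not tested at any of the 53. The reads were from Lewis rats and the assembly is of another strain, and the part this plays was not tested.

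**Figure D3:**
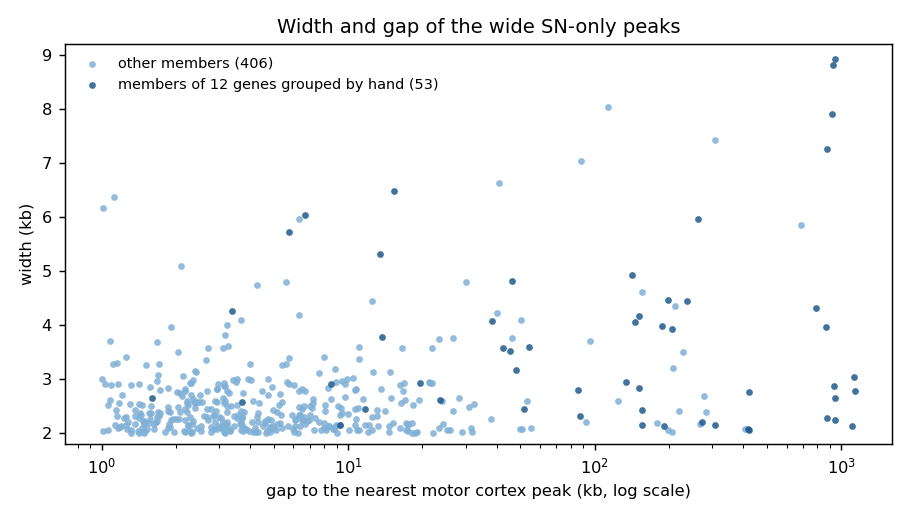
Width in kb against the gap to the nearest motor cortex peak in kb (log scale) for the 459 wide SN-only peaks, 1 point each, with the 53 peaks of 12 genes grouped by hand in dark blue. The rule set the lower limits at 2 kb and 1 kb, and 31 of the 47 peaks beyond 100 kb are dark, while the light ones crowd near 2.4 kb wide and 4 kb away.

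Taking runs of at least 3 peaks with no more than 10 kb between neighbours, 8 clusters held 32 peaks (6.97%, Wilson interval 4.98% to 9.68%). Adam6, Rn18s, Smok2a and Vom2r47 gave 6 of the 8, and Ncam1 gave another. In fixed windows of 1 Mb, 5 windows held 5 or more and together 47 peaks (10.2%, interval 7.79% to 13.4%). These were the Rn18s and Adam6 windows with 13 each, Smok2a with 9, Pbx3 with 7 and Rgma to Chd2 with 5. Of the 312 windows with any, 227 held a single peak. Of the 5330 wide motor cortex-only peaks, 60.4% lay in such windows and 17.8% in clusters, but these fixed thresholds are reached more often by a larger set, so the shares are not comparable.

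Without those windows, 412 of 13852 wide SN peaks had no motor cortex counterpart, or 2.97%. By chromosome the share ran from 0.962% on chromosome 18 (4 of 416) to 5.36% on chromosome 6 (39 of 728), with 64 peaks on chromosome 1, 50 on chromosome 3 and 41 on chromosome 8 (4.95%). The peaks outside the crowded windows were 3.57% of all wide SN peaks of chromosome 6 (26 of 728). On chromosome 3 they were 2.87% (30 of 1046), while chromosome 8, which has no such window, stayed at 4.95%. Unlike the 2.97%, these chromosome shares keep the windows' own wide SN peaks in the total.

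**Figure D4:**
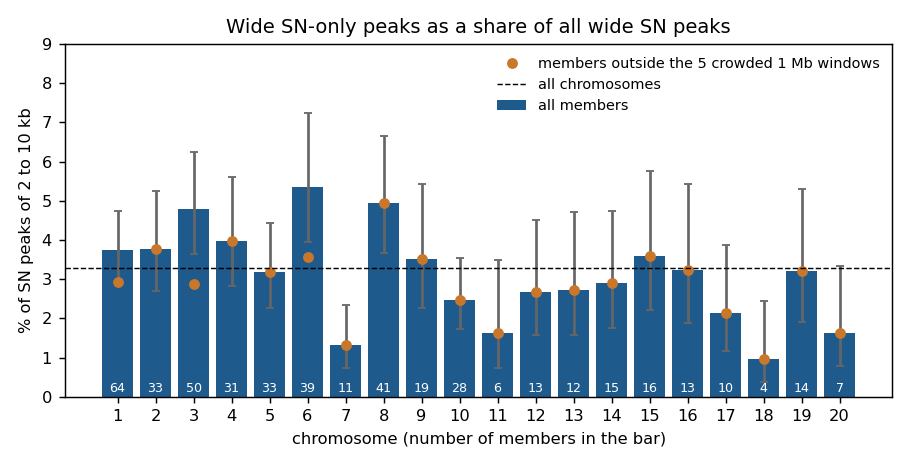
Wide SN-only peaks as a percentage of all SN peaks of 2 to 10 kb on each of chromosomes 1 to 20. Bars show all wide SN-only peaks, with 95% Wilson intervals and the number of peaks inside. Orange points show only the peaks outside the 5 crowded windows, over the same totals. The dashed line at 3.30% is the value over all chromosomes. Chromosome 6 is highest with crowded windows counted and chromosome 8 without them.

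Pbx3, with 6 peaks, encodes a TALE homeodomain factor that partners Hox and Meis proteins. Its 6 peaks on chromosome 3 spanned 113.5 kb and measured 4445, 2450, 2412, 5958, 3281 and 2493 bp in genome order. The last 4 were annotated to introns and the first 2 lay between Pbx3 peaks. Their gaps to the motor cortex list were 12481, 6528, 3679, 6314, 3992 and 31024 bp. Both lists had peaks at the locus, which held 56 other SN peaks and 12 motor cortex peaks over 233.5 kb, and 2 motor cortex numbers were missing beside each of the 6. A seventh peak in the same megabase, of 2176 bp, lay between Mvb12b and Pbx3. The pattern at Pbx3 was therefore of wide SN peaks set among motor cortex peaks, and at Adam6 of wide SN peaks with none.

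**Figure D5:**
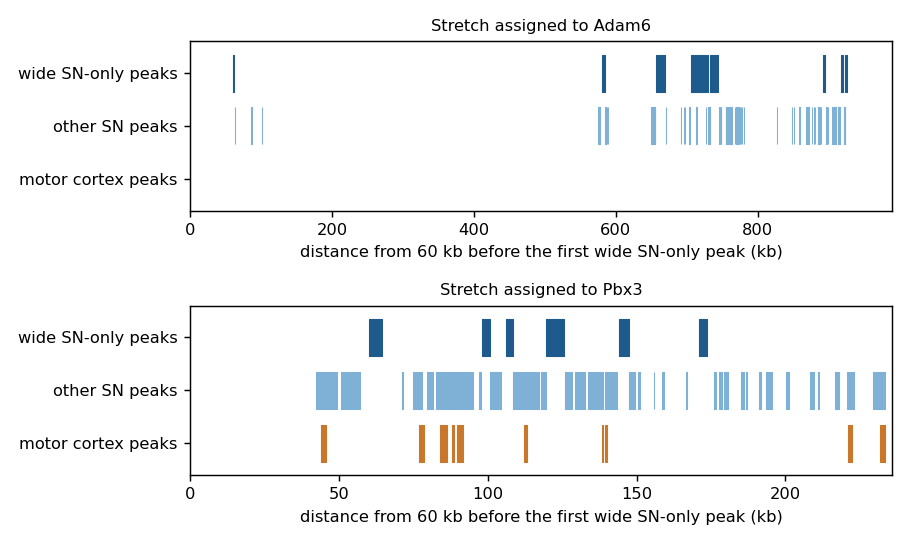
Peaks along the stretches assigned to Adam6 (top) and Pbx3 (bottom), as distance in kb from 60 kb before the first wide SN-only peak, with wide SN-only peaks in dark blue, all other SN peaks in light blue and motor cortex peaks in orange. The Adam6 map has 14 wide SN-only peaks and no motor cortex peak, and the Pbx3 map has 6 with 12 motor cortex peaks around them.

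Ncam1, the neural cell adhesion molecule, had 4 peaks on chromosome 8. A run of 3, of 2858, 3184 and 4008 bp, lay within 17.4 kb, and the other, of 2305 bp, lay farther along at chr8:50294158-50296462. They were 1579 to 8834 bp from motor cortex peaks. Between Rgma, a repulsive axon guidance ligand, and the chromatin remodeller gene Chd2, 5 peaks of 2093 to 3277 bp lay 1114 to 14857 bp from motor cortex peaks, 1 of them in an intron of Rgma. The window there held 15 wide SN peaks and 20 wide motor cortex peaks.

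Among the 10 widest peaks, 4 were at Adam6 and 1 each at Lzts1 and Adgre4. One of 6633 bp was assigned to the cytokine gene Il6, distal to it at chr4:699562-706194 and 40877 bp from a motor cortex peak. One of 6378 bp lay between Mta1 and Crip1 at chr6:132147105-132153482, only 1120 bp from motor cortex acetylation and with 7 motor cortex numbers missing around it. The other two lay in stretches that hold Iroquois genes.

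Both of these stretches were remote from motor cortex peaks. On chromosome 1, a stretch of 1437 kb without motor cortex peaks, between peaks named for Slc6a19 and Adamts16, held 11 SN peaks. The wide ones measured 8041 bp (chr1:31293993-31302033) and 5857 bp (chr1:30662035-30667891) and lay 113666 and 683790 bp from the nearest motor cortex peak, with 6 motor cortex numbers missing in the stretch. On GRCr8 the genes between the same neighbours include Irx1, Irx2 and Irx4 and, toward Slc6a19, Slc6a3, the dopamine transporter gene. Which of them lies nearest to each peak was not determined. On chromosome 19, between Irx6 and Crnde, where Irx5 lies, adjoining peaks of 3701 and 7035 bp (chr19:14634859-14638559 and chr19:14639099-14646133) sat 95380 and 87806 bp from motor cortex peaks, with no motor cortex number missing. Another peak, of 2185 bp, lay between Crnde and Fto, where Irx3 lies, 178643 bp away and with 2 motor cortex numbers missing. In the windows of Irx5 and Irx3 together, the motor cortex list had no wide peak at all, while the SN list had 3 in each.

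Another 4 segments, picked by hand after their values were seen, are described for the genes they hold, and no count over all stretches was made. Peaks of 4612 bp (chr13:31751275-31755886) and 2025 bp lay between Tmem185b and Ccdc93, a segment that includes the midbrain homeodomain gene En1, at 155814 and 205665 bp from motor cortex peaks, with 0 and 1 motor cortex numbers missing. A peak of 2210 bp lay between Dnajb6 and Insig1, which flank En2 and the signalling gene Shh, 92411 bp away. Peaks of 3199 and 4345 bp lay side by side between Peli2 and Parp2, a segment with Otx2, 207574 and 210914 bp away. Peaks of 2177 and 3502 bp lay between Ice2 and Myo1e, a segment with the forkhead gene Foxb1, 266358 and 229247 bp away. In each of the last 3 segments 1 motor cortex number was missing in the stretch. The 4 segments also hold other genes, such as the olfactory receptors beside Otx2. The pairing of peak with gene is by order along the chromosome only.

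Between Prkch and Hif1a, 4 peaks of 2413 to 4229 bp lay in 115.8 kb free of motor cortex peaks but with 6 motor cortex numbers missing. The Dact2 stretch on chromosome 1 had 3 peaks of 2033 to 2899 bp, 10626 to 31897 bp from motor cortex peaks. In all there were 4398 stretches of at least 100 kb without motor cortex peaks. SN-only peaks of any width lay in 1277 of them, and wide ones in 45, or 1.02%.

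Gene lists for cell types and pathways of the tissue gave few peaks. The lists held 144 genes, of which 123 could be placed between their named neighbours in a window of at most 2 Mb. The windows of 14 genes hold 17 of the 459 peaks, and the distance from peak to gene was not determined. The dopamine neuron list had 17 of 23 genes placed. In its windows 5 of the 54 wide SN peaks were SN-only (9.26%), against 3.30% over all wide SN peaks. The 5 lay in the windows of Drd2 (dopamine receptor), Gch1 (cofactor synthesis for tyrosine hydroxylase), En1 with 2, and En2. None of the 5 was assigned to a gene of the list. The window of Th, the rate-limiting enzyme of dopamine synthesis, had 3 wide SN peaks and none was SN-only. There was likewise none for Slc18a2, Ddc, Pitx3, Lmx1b, Foxa2 or Aldh1a1. The Lmx1a window had 0 wide SN peaks of any kind. Windows over the limit, such as those of Slc6a3, Nr4a2, Otx2, Foxa1 and Calb1, are not counted.

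For midbrain and hindbrain patterning and GABA lineage factors, 5 of 99 wide SN peaks were SN-only (5.05%, against 3.30% over all). The 5 lay in the windows of Irx5 with 2, Irx3, Barhl1 and Tcf7l2. Only the peak in the Tcf7l2 window was assigned to the listed gene, a Wnt-pathway transcription factor. It measured 2520 bp at chr1:254940831-254943350 and lay 18327 bp from motor cortex. Hox clusters (0 of 15), serotonin and noradrenaline genes (0 of 30) and choroid plexus genes (0 of 18) had none. Counts this low allow shares of up to 20.0%, 10.0% and 16.7%, taking 3 counts as the limit of a count of 0.

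Glial and vascular lists lay around the background of 3.30%. The oligodendrocyte windows had 2 of 106 (1.89%), in those of the myelin genes Mbp and Mobp. The microglia windows had 1 of 54 (1.85%), in that of Itgam. The astrocyte windows had 2 of 53 (3.77%), both in introns of Slc6a11, a GABA transporter of astrocytes. These measured 2889 and 2967 bp and lay 1091 and 9447 bp from motor cortex peaks. The vascular and meningeal windows had 1 of 29 (3.45%), in that of Flt1. The cortical projection neuron windows had 1 of 24 (4.17%), in that of Cux2. Of their 79 wide motor cortex peaks, 44 (55.7%) had no SN partner, against 24.8% over all wide motor cortex peaks. In the other lists this reverse share ran from 9.72% (7 of 72, microglia) to 26.0% (19 of 73, dopamine neuron). No test was made on any list in either direction. With so few SN-only peaks, no list is set apart from another by its SN-only share.

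The remaining named genes each had 1 to 3 peaks and were chosen for mention after their values were seen. Enpp5, an ectonucleotide pyrophosphatase family gene, had peaks of 3384, 2877 and 2451 bp, 2676 to 5782 bp from motor cortex peaks. Pde4b, a cyclic AMP phosphodiesterase, had peaks of 2839, 2170 and 2503 bp, 1368 to 8322 bp away. Igf1r, the receptor for insulin-like growth factor, had 2, and the wider, of 5086 bp, lay 2091 bp away at chr1:121748591-121753676. Nfia, a factor of glial development, had peaks of 2905 and 2510 bp. Single peaks lay at Rxra (3283 bp in an intron), Cux1 (3612 bp), Socs3 (2210 bp), Zbtb20 (2053 bp), Chrna7 (2504 bp) and App (2047 bp). All these lay at most 11027 bp from a motor cortex peak, and a motor cortex number was missing beside each except Rxra.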

How the data were processed

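H3K27ac ChIP-seq reads were processed by the authors with Trim Galore 0.6.7, FastQC 0.11.9, Bowtie2 2.4.4, Picard 2.6.0 and MACS2 2.2.7.1 on mRatBN7.2, per the labels and the methods. The 2 deposited peak lists, 1 per region over all rats, give a position and a peak name, and no count, signal, score or p-value. Why some peak numbers are absent is not given in the sources used here.

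Intervals were compared with Python 3.11.15 scripts (numpy 2.4.6, pandas 2.3.3, scipy 1.17.1) checked on simulated lists, where all 1419 set members were found. Gaps are bases between interval ends. Names came from positions, gene names and annotation classes in the authors' tables and from RefSeq order on GRCr8, which gave no coordinates. Fold changes and p-values there were not used. The text named the 10 widest, the 10 farthest from motor cortex, the clusters (1 is not reported here), all crowded windows and all peaks of listed genes, and says where other genes were picked. Members and lists were chosen with earlier results of these data known. No test between groups was run. Other gaps, widths, cluster and window sizes were tried.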

Additional observations from a re-analysis of the deposited data

How the results depend on the processing

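Of 42 alternative values for 9 results, 15 stayed within 1.5 times of a count or within the 95% interval of a share or median, and 27 moved. With a gap of 5000 or 10000 bp the wide SN-only peaks numbered 224 and 142, their share of wide SN peaks was 1.61% and 1.02%, their median width 2495 and 2614 bp, and 12.9% and 18.3% lay in clusters. A gap of 0 bp gave a share of 4.26%. Widths from 1500 or 3000 bp gave 1231 and 89 peaks (5.74% and 1.40%). A reciprocal overlap of 50% gave 3294 peaks, counting only motor cortex peaks of at least 1000 bp gave 885, and merging both lists across 1000 bp first gave 998. Wide motor cortex-only peaks numbered 3384 with a gap of 10000 bp and 8836 and 2190 with widths from 1500 and 3000 bp. Clusters with members up to 25000 bp apart held 11.98%. Another SN peak lay within 2 kb of 72.3% and within 10 kb of 96.7%, and 19.4% had no motor cortex peak within 20 kb. Alternatives added after seeing the data were 83 peaks with no motor cortex number missing and, without the 12 genes grouped by hand, 1.48% in clusters, 2.96% in crowded windows and 5.67% without a motor cortex peak within 50 kb. The cause of these shifts was not tested. No paired analysis was possible because the deposited lists pool the rats of each region and hold no value per replicate, so leaving out a replicate was not run either. Chromosome X, outside the rule, had 1 such peak of 3088 bp among 157 wide SN peaks.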
